A study of Mus musculus with 9 samples.

Results

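The L-type cyclins Ccnl1 and Ccnl2 and the CDC-like kinases Clk1, Clk2, Clk3 and Clk4 were followed in RNA-seq libraries from mouse brain. The 6 genes were taken by symbol from a counts table of 24421 rows, and all 6 were found there. They are known for nuclear transcripts that keep introns, and they were picked because Ccnl2 was the second firmest rise after BAL101553 in these same libraries. The genes were thus chosen by measured values, namely the strength of the test between treated and control libraries, in which the 3 firmest rises were, in order, Ltbp2 (log2 fold change 3.09), Ccnl2 (1.35) and Malat1 (2.28). The differences of the 6 genes between treated and control libraries are therefore given as a description, with no test.

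The samples were ex vivo brain samples of C57BL/6 mice, with 3 libraries in each of 3 groups. Per the study's methods, the control and BAL groups are SB28 glioma cells, a single mouse line that expresses GFP and luciferase, which had been implanted in the brain and were sorted by GFP, although the labels call both groups whole tissue. The control mice received vehicle. The BAL mice received BAL101553 (lisavanbulin), the prodrug of avanbulin, which disrupts microtubules and activates the spindle assembly checkpoint. Per the same methods, the treated mice were harvested later than the controls, so treatment and time of growth in the brain cannot be told apart. The Astro group is labelled astrocytes, with BAL101553 as the treatment and the same strain, and no control astrocytes were analysed here. Nothing in the labels says whether the libraries of a group came from separate mice, and the methods speak of 2 ex vivo samples per group where 3 are labelled, so the p-values measure the spread between libraries, which may be technical.

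Total counts lay between 22919523 and 34013875 per library. Levels are given as CPM, which are counts scaled to a common library size, here with TMM factors over the 9 libraries. The summed astrocyte markers reached 12298 to 15088 CPM in the Astro libraries, against 923 to 966 CPM in control and 671 to 787 CPM in BAL, where nearly all of the sum was Gja1. Slc1a2, the glutamate transporter that defines astrocytes, averaged 5287 CPM in Astro and 1.24 and 1.41 CPM in control and BAL. Oligodendrocyte markers summed to 10498 to 13039 CPM in Astro and to 20.5 CPM or less in every SB28 library, and those of microglia and macrophages to 505 to 1100 CPM in Astro and to 11.1 CPM or less in SB28. The Astro libraries thus held transcripts of other glia beside those of astrocytes, and a cell type with more cells and one with more RNA per cell cannot be told apart in such bulk samples.

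L-type cyclins contain a cyclin box and a domain rich in arginine and serine (RS domain), reside in nuclear speckles, and bind the CDK11 kinases in complexes that act in transcription and pre-mRNA splicing. CLK kinases phosphorylate the RS domains of SR proteins, the factors that mark exons for the spliceosome, and thereby release them from speckles. Transcripts of both families are known to be held in the nucleus with unspliced introns. For the Clk genes, removal of these introns is known to respond to CLK activity itself and to heat or other stress.

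In the GENCODE M21 annotation of GRCm38, all 6 genes have transcripts classed as retained intron, as do 41.5% of 21951 protein-coding genes. Ccnl1 (ENSMUSG00000027829.15) lies on the minus strand at chr3:65946151-65958249 and has 8 retained-intron transcripts among 14. Ccnl2 (ENSMUSG00000029068.16) lies on the plus strand at chr4:155812489-155824543 and has 3 among 5. Clk1 (ENSMUSG00000026034.17), on the minus strand at chr1:58410189-58424066, has 7 among 13. Clk2 (ENSMUSG00000068917.12), on the plus strand at chr3:89164795-89176921, has 4 among 11. Clk3 (ENSMUSG00000032316.8), on the minus strand at chr9:57750624-57765860, has 4 among 9, and Clk4 (ENSMUSG00000020385.16), on the plus strand at chr11:51261730-51281766, has 7 among 14. The counts are 1 number per gene, so spliced and intron-containing transcripts could not be separated.

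The promoters of 5 of the 6 genes were read from RefSeq (GRCm38.p6), as the 250 bases before each gene's start. The letters TGACG, which are the core of the CRE element known to be bound by CREB and ATF proteins, stood on either strand in 5 of these 5 promoters and in 17.8% of 32851 promoters of the same length. Ccnl2 and Clk4 each held 3 copies, counting both strands and overlapping matches, and 0.688% of all promoters held at least that many. The palindrome TGACGTCA, which contains the shorter motif on both strands, was found in Ccnl1 and Clk4 and in 1.55% of all promoters. The GC box GGGCGG was also in 5 of 5 (32.7% of all), CCAAT was in 2 (33.8%), CACGTG was in 1 (6.02%) and TATAAA was in 0 (12.4%), each searched on both strands. A match describes the letters and says nothing of what binds there. RefSeq and GENCODE do not place every start alike, and the RefSeq starts of Clk3 and Clk4 lie inside the GENCODE spans of those genes. The last 120 bases before the start are shown for the 3 genes with 2 or more copies, with the copies in capitals. Clk2 and Clk3 held 1 copy each. In all 5 promoters, every copy found lay within these last 120 bases. The stretch of Ccnl1 is chr3:65958250-65958369 on the minus strand, that of Ccnl2 is chr4:155812369-155812488 on the plus strand, and that of Clk4 is chr11:51262994-51263113 on the plus strand.
Ccnl1: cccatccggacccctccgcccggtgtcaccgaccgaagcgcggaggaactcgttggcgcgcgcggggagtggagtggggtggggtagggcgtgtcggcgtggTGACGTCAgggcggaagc
Ccnl2: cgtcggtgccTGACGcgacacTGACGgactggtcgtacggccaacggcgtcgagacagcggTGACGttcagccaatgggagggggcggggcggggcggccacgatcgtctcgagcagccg
Clk4: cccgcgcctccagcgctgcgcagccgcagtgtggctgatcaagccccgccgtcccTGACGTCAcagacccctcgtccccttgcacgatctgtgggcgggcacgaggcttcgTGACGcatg

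The first comparison asked how SB28 cells taken from BAL101553-treated mice differed from those of control mice. Ccnl2 stood apart from the other 5 genes, at 2.55 times the control level, whereas its paralog Ccnl1 was at 1.44 times. Among the kinases, Clk1 and Clk2 were higher in every treated library than in every control library, and the groups overlapped for Clk3 and Clk4. Thus 4 of the 6 genes had every BAL library above every control library, as did 20% of the 12633 genes tested, while 19.7% had every BAL library below every control library. The choice of the 6 genes used this contrast, so nothing is read from that count. The median log2 fold change over all genes tested was 0.016.

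Ccnl2 measured 22.0, 23.3 and 26.3 CPM in control 1 to 3. It measured 62.1, 58.9 and 60.4 CPM in BAL 1 to 3. All treated libraries lay far above the highest control, within a span of only a few CPM, and the log2 fold change was 1.35 (SE 0.10, n = 3 per group). Ccnl1, the other cyclin L, measured 45.0, 41.1 and 51.4 CPM in control and 63.4, 71.0 and 62.5 CPM in BAL, a log2 fold change of 0.53 (SE 0.11). The groups did not overlap, with control 3 nearest to BAL 3.

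Clk1, the kinase best known for autoregulation through its own splicing, measured 26.2, 31.0 and 29.9 CPM in control. In BAL it measured 35.8, 44.0 and 45.4 CPM, a log2 fold change of 0.53 (SE 0.13). BAL 1 was the lowest treated library and lay nearest to the controls. Its closest relative Clk4 measured 17.8, 24.2 and 24.8 CPM in control and 24.5, 27.1 and 27.4 CPM in BAL, a log2 fold change of 0.25 (SE 0.15). The groups touched, since BAL 1 lay below control 3 and control 1 lay well below all others. Without control 1 the log2 fold change of Clk4 was 0.10.

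Clk3 measured 43.3, 46.2 and 53.6 CPM in control and 55.3, 54.1 and 52.9 CPM in BAL, a log2 fold change of 0.19 (SE 0.10). Control 3 lay above BAL 3, so the groups overlapped, and the log2 fold change was 0.12 without control 1. Clk2 was the least counted of the 6, at 3.84, 5.58 and 5.54 CPM in control and 8.91, 8.41 and 8.97 CPM in BAL, a log2 fold change of 0.82 (SE 0.19). These values rest on 86 to 150 counts per control library and 215 to 309 per BAL library. The 3 treated libraries were close together and control 1 was the lowest of all. The counts of Clk2 are uncertain and may be too low, because the table also has a row for the read-through gene Clk2-scamp3, with 0 or 1 counts per library, whose RefSeq span covers Clk2, so reads on shared exons may not have been assigned to either gene.

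**Figure D1:**
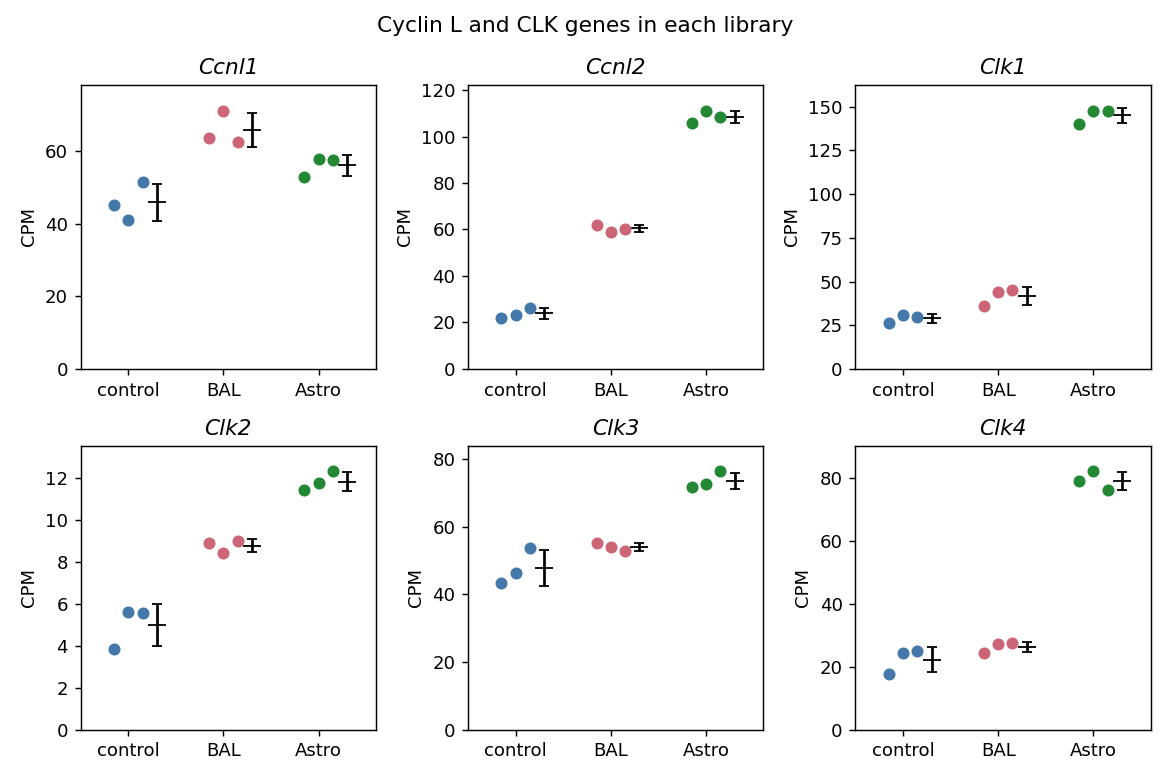
Levels of the 6 genes in each library, in CPM on linear axes that start at 0 and differ between panels. Points are the 3 libraries of each group (replicates 1 to 3 from left to right) and the black bars beside them give the mean and SD. Ccnl2 is at 22.0 to 26.3 CPM in control, 58.9 to 62.1 CPM in BAL and 105.9 to 111.1 CPM in Astro, while the control and BAL points of Clk3 and Clk4 overlap.

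The test of the same contrast called 14.7% of all genes at an adjusted p under 0.05 (edgeR quasi-likelihood test, Benjamini-Hochberg adjustment), with 1091 genes higher in BAL, or 8.64% of those tested, and 769 lower. Scaling by library totals in place of TMM gave 1456 higher and 426 lower. The calls also depended on single libraries. The total fell from 1860 to 193 genes without control 3 and to 458 without control 1. It fell to 668 without BAL 3, to 1133 without BAL 1, and stood at 1260 without control 2. The count without BAL 2 is not listed here, and no fit with left-out libraries called more than 1757 genes.

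Because counts of 2 genes in the same library share its depth and scaling, ratios within a library are free of both. The ratio of Ccnl2 to Ccnl1 counts was 0.490, 0.567 and 0.511 in control and 0.980, 0.830 and 0.966 in BAL. Ccnl2 thus had about as many reads as Ccnl1 in treated SB28 cells and fewer in control cells, with no overlap between the groups. Ccnl2 was chosen by its rise in this contrast, so its ratios to other genes are a description and no separate support for that rise. The share of other gene pairs whose ratios did not overlap was not computed. The ratio of Ccnl2 to Clk1 was 0.752 to 0.877 in control and 1.33 to 1.74 in BAL. Among the kinases, the ratio of Clk1 to Clk4 was 1.47, 1.28 and 1.20 in control and 1.46, 1.62 and 1.66 in BAL, and that of Clk1 to Clk3 was 0.558 to 0.671 and 0.647 to 0.858, so that both ratios overlapped between the groups. Ratios of Clk2 to the other kinases did not overlap, and ratios of Clk2 to the cyclin L genes were not computed. Clk2 to Clk4 was 0.216 to 0.230 in control and 0.310 to 0.364 in BAL, Clk2 to Clk3 was 0.0888 to 0.121 and 0.155 to 0.170, and Clk2 to Clk1 was 0.147 to 0.185 and 0.191 to 0.249, within the limits on Clk2 counts given above.

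**Figure D2:**
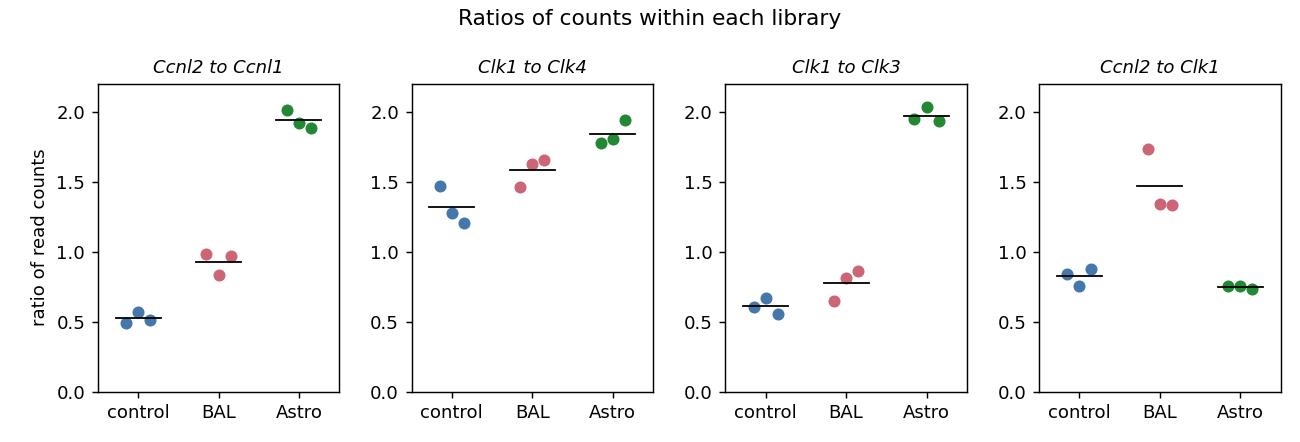
Ratios of read counts within each library, on a linear axis from 0. Points are the 3 libraries of each group and lines are their means. Ccnl2 to Ccnl1 steps from 0.490 to 0.567 in control to 0.830 to 0.980 in BAL and 1.89 to 2.01 in Astro, whereas Ccnl2 to Clk1 is highest in BAL, at 1.33 to 1.74.

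The Astro libraries were not used to choose the genes, and were compared first with BAL, which shares their labelled treatment. Ccnl2, Clk1, Clk2, Clk3 and Clk4 were higher in Astro and Ccnl1 was lower. All 6 passed the threshold, against 85.1% of the 15314 genes tested in this contrast between glioma cells and labelled astrocytes, so the number called is near the background. Of all genes, 46.3% were called higher and 38.9% lower, and 48.7% had every Astro library above every BAL library and 39.2% every one below. For the 6 genes the groups also did not overlap. The median log2 fold change over all genes was 0.18, and the 6 genes ranged widely around it.

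Clk1 measured 140.1, 147.7 and 147.6 CPM in Astro, a log2 fold change over BAL of 1.76 (SE 0.10, adjusted p = 1.31e-06 by the edgeR quasi-likelihood test). Clk4 measured 78.9, 82.0 and 76.2 CPM, a log2 fold change of 1.55 (SE 0.084, adjusted p = 8.03e-07 by edgeR). Both kinases lay near 3 times their BAL level or above it, and no library overlapped. Ccnl2 measured 105.9, 111.1 and 108.6 CPM in Astro, and its log2 fold change over BAL was 0.81 (SE 0.073, adjusted p = 1.54e-05 by edgeR). Every Astro library had more Ccnl2 than every BAL library.

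Clk3 and Clk2 differed less. Clk3 measured 71.8, 72.7 and 76.3 CPM in Astro, a log2 fold change over BAL of 0.41 (SE 0.072, adjusted p = 0.000821 by edgeR). Clk2 measured 11.4, 11.7 and 12.3 CPM, a log2 fold change of 0.39 (SE 0.13, adjusted p = 0.0194 by edgeR). Both had every Astro library above every BAL library, but the adjusted p of Clk2 was 0.0569 to 0.0588 when any 1 Astro library was left out.

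Ccnl1 was the only 1 of the 6 that was lower in Astro than in BAL, at 52.7, 57.8 and 57.6 CPM, a log2 fold change of -0.26 (SE 0.083, adjusted p = 0.0170 by edgeR). No Astro library reached the lowest BAL library. This call was lost with RLE size factors (-0.21, adjusted p = 0.0508), with library totals (-0.056, adjusted p = 0.554), with DESeq2 (-0.21, adjusted p = 0.0521), with a minimum of 10 counts in every library (-0.036, adjusted p = 0.710), in 1 model of all 9 libraries (-0.23, adjusted p = 0.05003) and without Astro 1 (-0.22, adjusted p = 0.0852). Over the genes in both fits, the median shift in log2 fold change from the main fit was 0.20 with library totals and 0.23 with the minimum of 10 counts. Where Ccnl1 lay against the median of all genes under these settings was not computed.

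Against control, which is the second reference for the same Astro libraries, all 6 genes were higher in Astro, beside 88.3% of 15207 genes called in either direction. Of all genes, 48.8% were called higher and 39.5% lower, and 50.4% had every Astro library above every control library and 39.4% every one below. The median log2 fold change over all genes was 0.25. Clk1 had the largest difference of the 6, at 2.28 (SE 0.086, adjusted p = 3.99e-08 by edgeR), followed by Ccnl2 at 2.14 (SE 0.084, adjusted p = 5.11e-08) and Clk4 at 1.78 (SE 0.13, adjusted p = 1.76e-06). Clk2 was higher by 1.20 (SE 0.17, adjusted p = 0.000170) and Clk3 by 0.58 (SE 0.091, adjusted p = 0.000289), again by edgeR. Ccnl1 had a log2 fold change of 0.25 (SE 0.095, adjusted p = 0.0354 by edgeR), which is close to the median of all genes, and its call was lost without control 1 (adjusted p = 0.0766), control 2 (0.107), Astro 2 (0.101) or Astro 3 (0.0919). Both comparisons use the Astro libraries, and each shares its reference libraries with the contrast that chose the genes, so they are not independent of it or of each other.

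**Figure D3:**
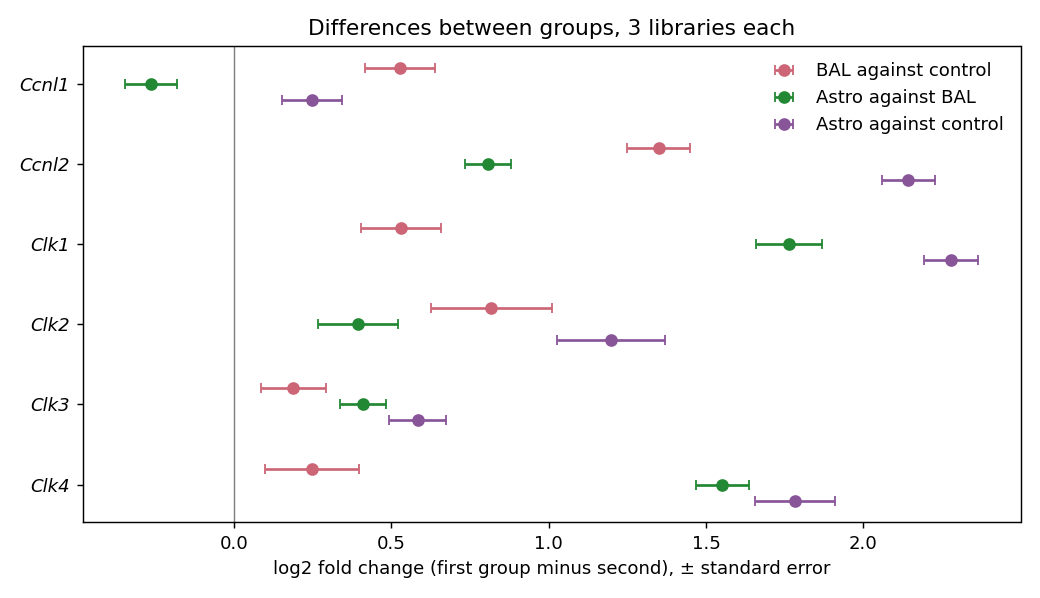
Log2 fold changes of the 6 genes in the 3 comparisons, with bars of ± 1 standard error and 3 libraries per group. Clk1 and Clk4 differ most between Astro and BAL (1.76 and 1.55), Ccnl2 differs most between BAL and control (1.35), and Ccnl1 alone lies below 0 in Astro against BAL (-0.26).

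Within libraries, Ccnl2 to Ccnl1 was 2.01, 1.92 and 1.89 in Astro, above every SB28 library. Clk1 to Clk3 was 1.93 to 2.03, also above every SB28 library, and Clk1 to Clk4 was 1.78 to 1.94. Ccnl2 to Clk1 was 0.736 to 0.756 in Astro, which overlapped the control range and lay below every BAL library.

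Per kilobase of exon (RPKM, over the exons of the GENCODE basic protein-coding transcripts), the order of the genes differed between the groups. In control, Ccnl1 was highest at 21.1 ± 2.39 RPKM (SD, n = 3), with Clk3 at 19.1 ± 2.14 and Clk1 at 16.2 ± 1.41. Clk4 and Ccnl2 were lower, at 10.8 ± 1.90 and 9.77 ± 0.890 RPKM. Ccnl1 and Clk3 overlapped in range, as did Clk4 and Ccnl2, and Clk1 lay just below the lowest Clk3 library.

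In BAL, Ccnl1 was at 30.3 ± 2.15 RPKM, Ccnl2 at 24.8 ± 0.657, Clk1 at 23.2 ± 2.88, Clk3 at 21.7 ± 0.491 and Clk4 at 12.8 ± 0.779 (SD, n = 3). By this length, Ccnl2 was at the foot of these 5 in control and came next after Ccnl1 in BAL, although the range of Clk1 overlapped both that of Ccnl2 and that of Clk3. In Astro, Clk1 was highest at 80.8 ± 2.41 RPKM, then Ccnl2 at 44.4 ± 1.07, Clk4 at 38.4 ± 1.42, Clk3 at 29.5 ± 0.958 and Ccnl1 at 25.8 ± 1.32, with no overlap between neighbours. The order depended on the length used in all 3 groups. With the exons of every annotated transcript, which include retained introns and were tried after the data were seen, control means ran from Ccnl1 (7.64 RPKM) over Clk3 (5.65), Ccnl2 (4.52) and Clk4 (3.84) to Clk1 (3.57). In BAL, Ccnl2 (11.5 RPKM) then stood above Ccnl1 (10.9), with Clk3 (6.40), Clk1 (5.13) and Clk4 (4.54) below. In Astro, Ccnl2 (20.6 RPKM) stood above Clk1 (17.8), followed by Clk4 (13.6), Ccnl1 (9.34) and Clk3 (8.71). Clk2 is not placed in the order because of its uncertain counts.

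Reads of the related genes could be told apart for the most part. Aligned over their coding sequences, Clk1 and Clk4 were 73.0% identical with a longest identical run of 34 bases, and Ccnl1 and Ccnl2 were 62.7% identical with a longest run of 26 bases, both shorter than the 50-base reads. Ccnl2, Clk1, Clk2 and Clk4 shared 0 of their 50-base stretches with another annotated gene. Ccnl1 shared 18.7% with its antisense gene Gm37305, and Clk3 shared 19.0% with other genes, among them Edc3 on the opposite strand. The libraries were stranded but the setting used in counting is not given in the sources used here, so the levels of Ccnl1 and Clk3 are less certain. Clk4 also overlaps BC049762 on the opposite strand, over 1317 bases of the gene.

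Deviations of the 6 genes from their group means were compared over the 9 libraries. Pearson's r between these deviations was positive for 15 of 15 pairs, from 0.038 for Ccnl1 and Clk2 to 0.918 for Ccnl2 and Clk3, with a median of 0.589. All 6 genes lay below their group mean in control 1, by -0.020 to -0.35 on the log2 scale, and above it in control 3, by 0.047 to 0.17. They also all lay below it in Astro 1. In every BAL library the signs were mixed. There Ccnl2 deviated by 0.039, -0.037 and -0.0019 in BAL 1 to 3, and Clk1 by -0.21, 0.085 and 0.13. The share of positive r over other gene pairs was not computed. The points share library depth and scaling, and the values are a description over 9 libraries. The genes whose log2 CPM was most like that of Ccnl2 over all 9 libraries were Amph (r = 0.994), Ankrd16 (0.991) and Malat1 (0.991), among 10146 genes with a mean of at least 10 CPM. For Ccnl1 they were Dhx57 (0.955), Dclre1c (0.952) and Tbc1d4 (0.946). For Clk1 they were Exd2, Col9a3 and Pcx (all 0.998), for Clk2 Rbm39, Sfswap and Vcam1 (0.984 to 0.985), for Clk3 Zfp316, Casc3 and Luc7l3 (0.988 to 0.991), and for Clk4 Zc4h2, Sparcl1 and Shtn1 (all 0.997). Clk1 and Clk4 had 1763 and 1792 genes above 0.95, while Ccnl2 had 152 and Ccnl1 had 2. Over the control and BAL libraries alone, which number 6, Ccnl2 was most like Tet3 (0.998), Ino80 (0.996) and Gm14420 (0.995), and Clk2 was most like Srek1 (0.995), Mdn1 and Pkmyt1 (both 0.994).

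Genes that act beside cyclin L and the CLK kinases were then counted by role in BAL against control, beside 8.64% of all genes called higher and 6.09% called lower. These lists were chosen with earlier results of these data known, and the contrast is the one that chose the cyclin L and CLK genes. Their counts and p-values are therefore a description and not separate support for those genes. Of 14 transcriptional cyclins and their kinases, 1 rose and 0 fell, with a median log2 fold change of 0.10. The 1 that rose was Ccnt2, a cyclin partner of Cdk9, at 0.82 (SE 0.17, adjusted p = 0.0224 by edgeR). Cdk11b, the kinase partner of cyclin L, measured 77.7, 83.3 and 80.2 CPM in control, 91.0, 76.5 and 89.2 CPM in BAL and 82.3, 82.7 and 83.8 CPM in Astro, with all groups overlapping. Of 10 tested among 12 other SR protein kinases and CLK relatives, 2 rose and 0 fell. They were Prpf4b, a kinase of the tri-snRNP, at 0.53 (SE 0.091, adjusted p = 0.0141 by edgeR) and Hipk3, a homeodomain-interacting kinase, at 0.49 (SE 0.12, adjusted p = 0.0377 by edgeR). Among the SR proteins and TRA2 factors, the substrates of CLK kinases, 0 of 12 tested passed the threshold in either direction, and their log2 fold changes lay between -0.27 and 0.33.

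Other nuclear proteins with RS domains or in speckles gave 8 of 19 genes higher and 0 lower, with a median log2 fold change of 0.47. The 8 were Pnisr, Nktr, Acin1, Rbm25, Srrm2, Pnn, Rbm39 and Luc7l2. Pnisr, an RS-rich protein that binds Pnn, measured 17.5, 21.2 and 23.5 CPM in control. It measured 42.2, 44.7 and 48.2 CPM in BAL and 200.5, 205.7 and 192.9 CPM in Astro. Its groups did not overlap, and the log2 fold change of BAL over control was 1.13 (SE 0.13, adjusted p = 0.00728 by edgeR). Nktr, a cyclophilin with RS repeats, rose by 0.69 (SE 0.11, adjusted p = 0.0113 by edgeR) and Acin1, a component of splicing-dependent complexes, by 0.61 (SE 0.079, adjusted p = 0.00742 by edgeR). With 1 library left out, the number called higher was 2 without control 3, 4 without control 1, 5 without any 1 BAL library and 6 without control 2. The number called over all genes also fell in these fits, as given above. The share of all genes called higher in them is not given here, so nothing particular to this list is read from these counts. Of the other genes known for regulated intron detention, Ogt, the O-GlcNAc transferase, measured 65.8, 72.0 and 68.5 CPM in control and 117.5, 155.7 and 126.9 CPM in BAL, a log2 fold change of 0.96 (SE 0.12, adjusted p = 0.00728 by edgeR). Mat2a, which makes S-adenosylmethionine, had a log2 fold change of 0.04 (SE 0.11, adjusted p = 0.815 by edgeR) and measured 140.6, 150.6 and 129.1 CPM in control and 130.2, 138.5 and 162.0 CPM in BAL, where the groups overlapped.

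Of 10 nonsense-mediated decay factors, 1 rose and 0 fell. This was the kinase Smg1, at 0.62 (SE 0.12, adjusted p = 0.0184 by edgeR), and the median of the list was 0.02. Of 4 nuclear noncoding RNAs, Malat1 and Neat1, which mark speckles and paraspeckles, rose by 2.28 (SE 0.18, adjusted p = 0.00430 by edgeR) and 1.45 (SE 0.21, adjusted p = 0.00995 by edgeR). Malat1 was already known to be among the firmest rises of this contrast. Malat1 measured 50.8, 40.7 and 53.6 CPM in control, 192.1, 216.2 and 291.6 CPM in BAL and 689.3, 632.8 and 607.5 CPM in Astro. It thus moved with Ccnl2 across the groups, and the part of nuclear RNA content or RNA quality in either gene's values was not tested. Of 22 immediate early and heat shock genes, Hspa1b rose by 1.15 (SE 0.21, adjusted p = 0.0172 by edgeR) and Egr2 and Dnajb1 fell by 0.99 and 0.59 (adjusted p = 0.0167 and 0.0431 by edgeR), with a list median of -0.12.

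**Figure D4:**
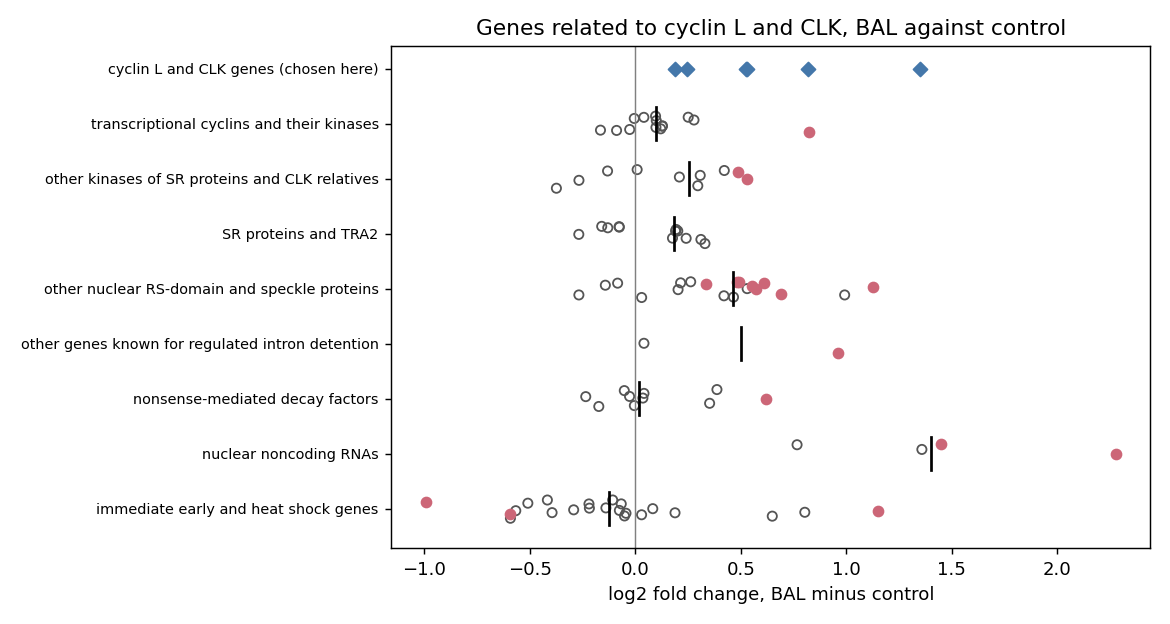
Log2 fold changes of BAL over control for the 6 genes (blue diamonds, with no test) and for the genes of 8 related lists (circles, filled red where the adjusted p is under 0.05). Black lines are list medians and vertical scatter within a row carries no meaning. The RS-domain and speckle list has 8 filled circles, all above 0, whereas the SR protein and TRA2 list has 0. The lists were chosen with earlier results of these data known.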

How the data were processed

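Per the labels and the study's methods, the authors prepared stranded libraries from total RNA, mapped 50-base reads to mm10 with TopHat and used PicardTools for quality control, and HTSeq 0.6.1 and featureCounts gave the counts. Which counter, annotation and strand setting made the table is not given in the sources used here. The authors deposited raw counts per gene, not normalized. Rows with spreadsheet dates in place of symbols (27) stayed in the fits and took at most 0.440% of a library's counts.

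The genes and the related lists were chosen with earlier results of these data known. Named beside the 6 were, from each list and comparison, up to 3 called genes per direction with the lowest p, and the 3 genes most like each of the 6 in log2 CPM. Cdk11b, Mat2a and the other called RS-domain genes were named after their values were seen. Each pair of groups was fitted alone with edgeR 4.0.16 (R 4.3.3; TMM, filterByExpr, quasi-likelihood test, two-sided, Benjamini-Hochberg over all genes tested, threshold 0.05), and log2 CPM used a prior count of 2. DESeq2 1.42.0, other scalings and filters, left-out libraries and a replicate block were alternatives, and the left-out counts of the RS-domain list and the second exon length were added after the data were seen. Within groups, chi-square per degree of freedom between libraries was 14.9 to 68.4, so each library was counted as separate. Exon lengths and overlaps came from GENCODE M21 and promoters from RefSeq, where Clk1 had no entry.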

Additional observations from a re-analysis of the deposited data

How the results depend on the processing

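No direction of any of the 6 genes was reversed under the scalings, filters, tools, models and left-out libraries tried. The number of genes called in BAL against control was 2832 with DESeq2 and 3022 in 1 model of all 9 libraries, against 1860, and leaving out libraries, singly or 1 from each group, gave 1 to 1757. The other alternatives gave counts within 1.5 times. The log2 fold change of Ccnl2 in that contrast kept within 1.27 to 1.44 when libraries were left out, and that of Ccnl1 ranged from 0.39 to 0.65. Clk1 ranged from 0.40 to 0.68, Clk2 from 0.65 to 0.93, Clk3 from 0.10 to 0.30 and Clk4 from 0.081 to 0.38, so Clk3 and Clk4 varied most for their size. In Astro against BAL, Ccnl1 lost its call with RLE size factors (-0.21), library totals (-0.056), DESeq2 (-0.21), a minimum of 10 counts (-0.036) and all 9 libraries (-0.23), and ranged from -0.31 to -0.22 with 1 library left out. Clk2 ranged from 0.34 to 0.42 there, and Ccnl1 in Astro against control from 0.18 to 0.33, each with calls lost. The other Astro calls on the 6 genes held under every alternative. In Astro against control, the median shift in log2 fold change over the genes in both fits was 0.30 with library totals and 0.24 with the minimum of 10 counts. The cause of these changes was not tested.

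Same-numbered libraries were not treated as pairs in the main fits, and whether they shared a mouse or a batch was not tested. The correlation of deviations from group means was 0.102, 0.006 and 0.113 for numbers 1 to 3 of BAL and control. It was -0.010 to 0.055 for the pairs with Astro. With the replicate number as a block, 1371 genes were called in BAL against control, 12815 in Astro against BAL and 13357 in Astro against control, and Ccnl2 kept a log2 fold change of 1.35 in BAL against control. The block changed none of the Astro calls on the 6 genes.

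Depth limits Clk2 most, at 86 counts in its lowest library. Time of harvest, treatment and sort cannot be told apart between control and BAL.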

Other observations

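In Astro against BAL, where 46.3% of all genes were called higher and 38.9% lower, the lists around cyclin L and the CLK kinases moved in mixed directions (edgeR quasi-likelihood test). Of 13 SR protein and TRA2 genes, 2 were higher and 9 lower, with a median log2 fold change of -0.36 beside 0.18 over all genes. Srsf5 was higher at 0.68 (SE 0.11, adjusted p = 0.000422) and Srsf9, Srsf3 and Srsf1 were lower at -1.38, -0.61 and -0.64 (adjusted p = 1.45e-06, 8.50e-05 and 8.75e-05 by edgeR). The other called gene that was higher, Srsf12, averaged 4.98 CPM in Astro and 0 CPM in BAL. Of the 19 RS-domain and speckle genes, 5 were higher and 9 lower. Rsrp1, Pnisr and Luc7l3 were higher at 2.17 (SE 0.090), 2.11 (SE 0.087) and 1.23 (SE 0.082), and Ppig was lower at -1.29 (SE 0.075). Of 10 nonsense-mediated decay factors, 1 was higher (Smg9, 0.61) and 8 were lower, with a median of -0.52.

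Both genes known for intron detention outside the 6 were higher in Astro than in BAL, Ogt by 1.19 (SE 0.11, adjusted p = 1.98e-05 by edgeR) and Mat2a by 0.99 (SE 0.12, adjusted p = 7.54e-05 by edgeR). Of 12 other SR protein kinases and CLK relatives, 4 were higher and 5 lower. Srpk1, the main cytoplasmic SR protein kinase, was lower by -1.58 on the log2 scale (SE 0.075, adjusted p = 4.14e-07 by edgeR), and Srpk3 averaged 34.9 CPM in Astro and 0.053 CPM in BAL. Of 14 transcriptional cyclins and their kinases, 4 were higher, with Cdk19 at 2.89 (SE 0.14), and 8 were lower, with Ccnt1 at -2.09 (SE 0.16). Of 22 immediate early and heat shock genes, 4 were higher and 14 lower, with Hspa1a higher at 1.43 (SE 0.094) and Klf4 lower at -3.82 (SE 0.17). Of the 4 nuclear noncoding RNAs, 3 were higher and 0 lower. Neat1 was higher by 3.30 (SE 0.22, adjusted p = 2.36e-06 by edgeR) and Malat1 by 1.43 (SE 0.16, adjusted p = 6.14e-05 by edgeR). Meg3 averaged 37.5 CPM in Astro and 0.536 CPM in BAL.

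In Astro against control, with 48.8% of genes called higher and 39.5% lower and a median of 0.25, the RS-domain and speckle list had 12 higher and 4 lower (median 0.34) and the SR protein and TRA2 list 3 higher and 7 lower (median -0.21). The transcriptional cyclin list had 3 higher and 9 lower, the kinase list 6 higher and 4 lower, and the decay factors 2 higher and 7 lower. The immediate early and heat shock list had 3 higher and 16 lower, while Ogt, Mat2a and the 4 noncoding RNAs were all higher.

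Of the other marker lists, neuron markers summed to 45.0 to 58.3 CPM in control, 28.2 to 53.4 CPM in BAL and 33.7 to 41.4 CPM in Astro. Most of each sum was Tubb3, at a mean of 47.6, 34.0 and 27.1 CPM, whereas Snap25, a synaptic protein, averaged 0.109, 0.278 and 5.004 CPM, and Rbfox3, which defines neurons, was at 0 in control and BAL and averaged 1.09 CPM in Astro. Endothelial markers summed to 727 to 859 CPM in control, 511 to 638 CPM in BAL and 185 to 214 CPM in Astro. Most of the sum in control and BAL was Cdh5, at a mean of 756 and 524 CPM, against 20.5 CPM in Astro. The other endothelial markers averaged higher in Astro. Among them, Cldn5, which defines brain endothelium, averaged 0.968 and 0.802 CPM in control and BAL and 62.7 CPM in Astro. The 4 of 5 T cell markers in the table summed to at most 0.083 CPM in SB28 and to 1.14 to 2.23 CPM in Astro. The part of these cells in the Astro values was not tested.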
